A study of Mus musculus with 4 samples.

Results

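Complement and coagulation factors were described here through the glucocorticoid receptor (GR) binding found around 34 of their genes in mouse liver, of 21992 protein-coding gene symbols in the GENCODE M21 annotation. The 34 were chosen by name, as genes for plasma proteins of the 2 cascades, with earlier results of these data known. A GR region was given to a member when the member held the protein-coding transcription start site (TSS) nearest to the region's centre. By that rule 102 of the 31343 regions called in dexamethasone-treated liver (the Dex set) and 18 of the 5883 regions called in vehicle-treated liver (the Vehicle set) belonged to the members. All 34 symbols were in the annotation.

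GR was immunoprecipitated from livers of male mice aged 6 to 8 weeks, 1 h after an intraperitoneal injection, and the bound DNA was sequenced (ChIP-seq). All 4 libraries were from ZT18, that is 18 h after lights on. There were 2 libraries from mice given water-soluble dexamethasone, a synthetic GR agonist, at 1 mg/kg (ZT18 Dex) and 2 from mice given its carrier, (2-hydroxypropyl)-beta-cyclodextrin (ZT18 Vehicle). The labels give every mouse, in both groups, the genotype Hnf4afl/flAlbCre+/-, in which an albumin-driven Cre would act on floxed Hnf4a in hepatocytes, whereas the study's methods describe C57BL/6 mice, so it is not settled whether hepatocytes had lost the transcription factor HNF4A. The labels do not tie a library to a separate animal, and the p-values therefore reflect only how these samples scatter, which may be technical. In the main edgeR fit that scatter was pooled over regions. The p and standard error (SE) of a region therefore do not measure its own replicate spread.

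The libraries held 91494606 and 29179899 reads (Vehicle 1 and 2) and 64169077 and 65097597 reads (Dex 1 and 2). Reads in a library's own region set made up 1.04% and 1.35% of the Vehicle libraries and 6.35% and 7.79% of the Dex libraries. Signal is given in RPKM, reads per kb of region scaled to the reads of the library, and replicate 2 was above replicate 1 in both groups, with a median log2 ratio over the shared regions of 0.36 (Vehicle) and 0.30 (Dex). Genes that mark hepatocytes had a Dex region for 10 of 10 and a Vehicle region for 6 of 10. The same counts were 0 and 0 of 7 for Kupffer cell and macrophage markers, 5 and 3 of 6 for endothelial markers, and 2 and 0 of 5 for stellate as for cholangiocyte markers. A region near a gene shows binding and not expression.

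The liver makes most circulating complement and coagulation proteins, and hepatocytes are their main source. Coagulation runs through a chain of serine proteases, circulating as inactive zymogens, that ends in thrombin, while protein C, protein S and the plasmin system limit or dissolve the clot. Complement is started by the C1 proteases or by lectins and their MASP proteases, passes through C4, C2 and C3, and ends with the assembly of C5 to C9 in a target membrane. GR is a ligand-activated transcription factor that binds DNA at glucocorticoid response elements (GREs) or through other factors, and glucocorticoids are known for their action on acute-phase genes of the liver.

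The sequences below are 200 bp about the centre of a Dex region, on the + strand of mm10. The first is shown because it was one of the 2 member regions whose signal passed the test of dexamethasone against vehicle (the other lies on a chromosome whose sequence is not shown). It lies in an intron of Dab1 and was given to C8b only as the nearest TSS, at -536.6 kb. Capitals mark matches to the motifs searched, and it held none.
C8b -536.6 kb, chr4:104229577-104229776: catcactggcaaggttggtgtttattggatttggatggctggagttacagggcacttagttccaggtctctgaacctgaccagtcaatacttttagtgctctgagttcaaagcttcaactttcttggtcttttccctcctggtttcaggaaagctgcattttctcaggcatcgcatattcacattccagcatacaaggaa
The next pair are the only member regions, of 102, that held the full GRE, spelled GNACA, any 3 bases and TGTNC (capitals). They lie -17.3 kb from the TSS of C8a, between genes, and -34.7 kb from the TSS of Hgfac, in an intron of Rgs12.
C8a -17.3 kb, chr4:104893642-104893841: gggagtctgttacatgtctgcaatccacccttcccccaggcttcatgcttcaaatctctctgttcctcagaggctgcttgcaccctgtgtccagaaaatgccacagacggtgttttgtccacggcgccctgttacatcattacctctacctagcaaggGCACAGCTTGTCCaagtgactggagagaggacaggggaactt
Hgfac -34.7 kb, chr5:35006716-35006915: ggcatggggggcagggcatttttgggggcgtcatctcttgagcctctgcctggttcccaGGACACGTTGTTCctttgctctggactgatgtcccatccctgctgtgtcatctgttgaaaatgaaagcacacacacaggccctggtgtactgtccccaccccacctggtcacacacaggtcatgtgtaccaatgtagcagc
The last pair, chosen after their values were seen, are the promoter regions of C3 and Cfb, which had the highest Dex signal of all member regions. The C3 window held no motif match. The Cfb window held an HNF4A match (CAAAGTCCA, from base 141) and a STAT match (TTCNNNGAA, from base 180), in capitals.
C3 promoter, chr17:57228196-57228395: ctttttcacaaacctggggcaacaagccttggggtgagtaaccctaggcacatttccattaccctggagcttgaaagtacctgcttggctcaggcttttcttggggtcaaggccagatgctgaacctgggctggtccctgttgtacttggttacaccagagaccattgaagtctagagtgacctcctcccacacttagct
Cfb promoter, chr17:34862374-34862573: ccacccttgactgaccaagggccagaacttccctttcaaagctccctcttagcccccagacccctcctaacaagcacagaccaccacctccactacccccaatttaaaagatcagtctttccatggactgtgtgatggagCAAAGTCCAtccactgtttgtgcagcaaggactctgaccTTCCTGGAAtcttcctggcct

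Nearly every member had a GR region nearby in the Dex set. Per the study's methods each set was called across ZT6 and ZT18 libraries, so presence in a set does not show binding at ZT18 alone. A Dex region had 32 of the 34 members (94.1%) as its nearest gene, against 50.5% of all protein-coding genes, and a Vehicle region had 14 (41.2%), against 18.3%. Within 10 kb of the TSS, 33 members (97.1%) had a Dex region, against 46.2% of all genes, and 12 (35.3%) a Vehicle region, against 14.3%. Over the promoter, taken to run from 2000 bp before to 200 bp after each TSS annotated for the gene, 31 members (91.2%) had a Dex region, against 37.5%, and 11 (32.4%) a Vehicle region, against 11.5%. The background counts every protein-coding gene, including genes silent in liver, and no gene expression was measured here, so these shares do not set the members apart from other liver genes. The share of genes with a region is plotted for each rule.

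**Figure D1:**
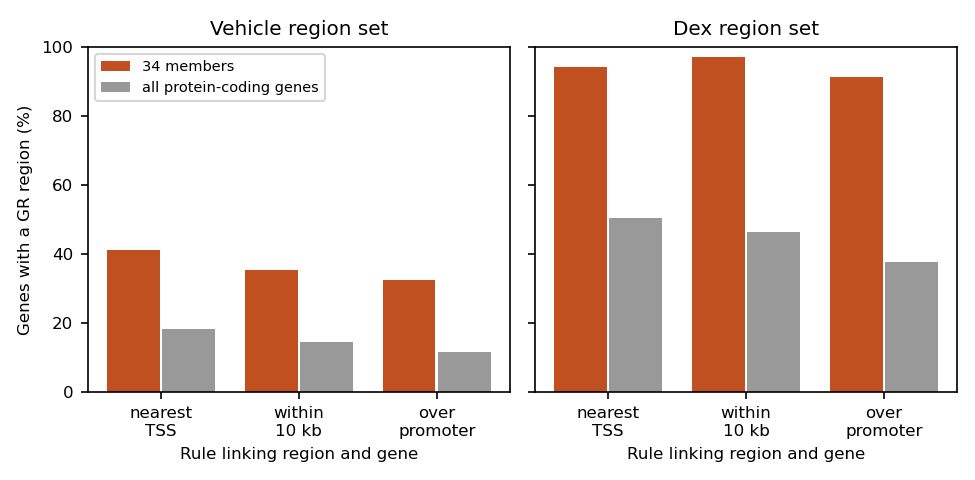
Share of genes (%) with a GR region in the Vehicle set (left) and the Dex set (right), by the rule that links a region to a gene, for the 34 members and for all 21992 protein-coding genes. Under each rule the members' bar stands above that of all genes, at 91.2% against 37.5% for Dex regions over the promoter.

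The members without a Dex region over their promoter were F13b, Hc and Mbl2. F13b, the carrier subunit of the fibrin-crosslinking factor XIII, had none within 10 kb, and its closest Dex region lay at -47.1 kb, had Aspm as its nearest gene and reached 1.67 and 2.42 RPKM in Dex 1 and Dex 2. C8g, the lipocalin-like chain of C8, was the nearest gene of no region, but a Dex region at 1.303 kb (chr2:25500162-25500671) with 5.08 and 6.13 RPKM lay over its promoter as well as that of Fbxw5, its nearest gene. A bound member was the nearest gene of 1 to 9 Dex regions, with a median of 3 against 2 for all bound genes. Only 7 of the 32 (21.9%) had a single region, against 45.2% of all bound genes.

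Of the 102 member regions in the Dex set, 36 (35.3%) lay over a promoter, 42 (41.2%) in an intron, 3 in an exon and 21 between genes. The promoter share over all Dex regions was 33.4% and the intron share 36.9%. The promoter was the member's own for 31 of the 36 and another gene's for 5. The members' regions lay closer to the TSS than the set as a whole, with 66 (64.7%) within 10 kb against 39.4% and 6 beyond 100 kb, of which 4 were C8b regions inside Dab1, 1 lay 240.3 kb from Pros1 and 1 lay -127.6 kb from C6. Negative distances are upstream of the TSS. The map of distances shows the regions of each member.

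**Figure D2:**
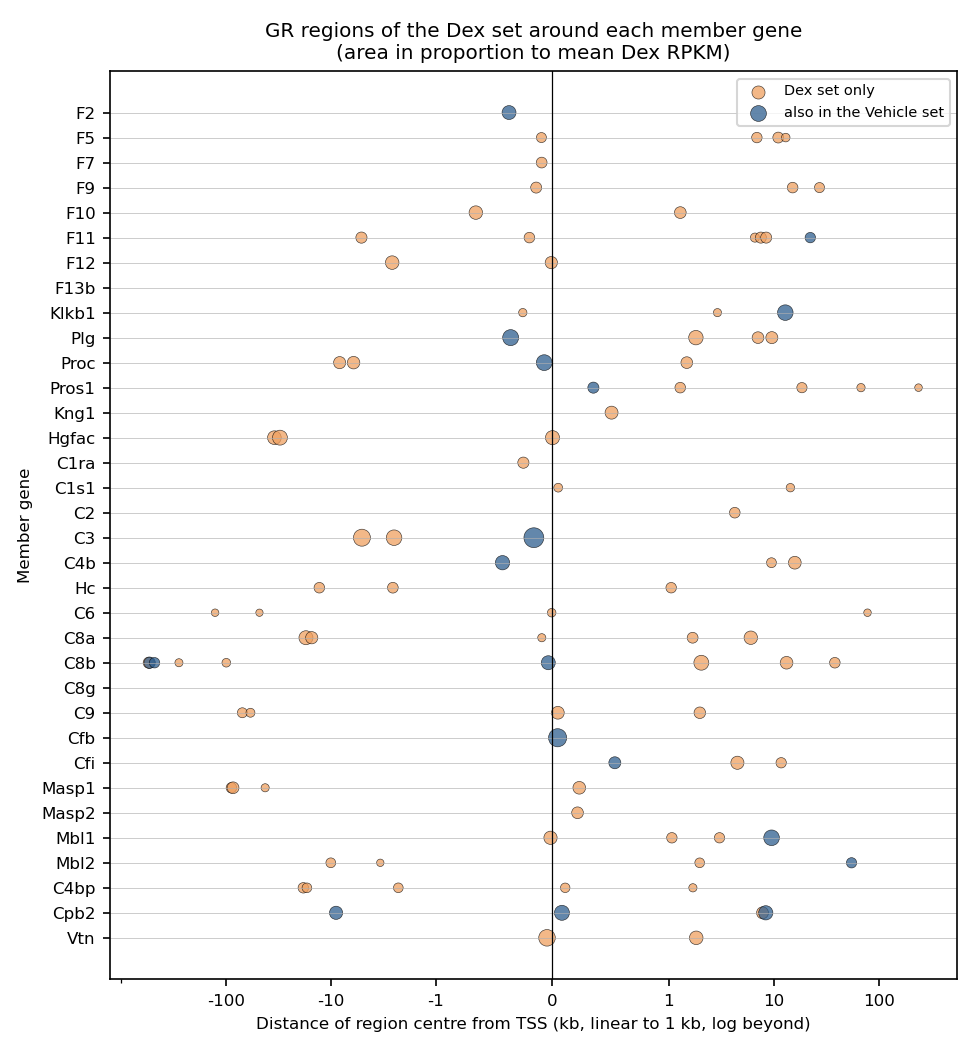
Distance of each Dex region's centre from the TSS of its member gene (kb, negative upstream, linear to 1 kb and logarithmic beyond), with point area in proportion to the mean Dex RPKM. Blue points overlap a Vehicle region (18 of 102), orange points lie in the Dex set only (84), and F13b and C8g have no point.

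GR signal at member regions in the Dex libraries ran from 1.54 to 11.3 RPKM (mean of the 2 libraries), with a median of 3.56 against 3.14 for all Dex regions. Over promoters the medians were 4.08 for members and 2.88 for all, and in introns 3.26 and 3.40. Of the 102, 12 (11.8%) had a signal above the 90th percentile of the Dex set. The strongest 5 were the C3 promoter, the Cfb promoter, a region -5.072 kb from C3, the Vtn promoter and the Plg promoter. Dex 2 was above Dex 1 at 84 of the 102, and at 74.98% of all Dex regions.

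**Figure D3:**
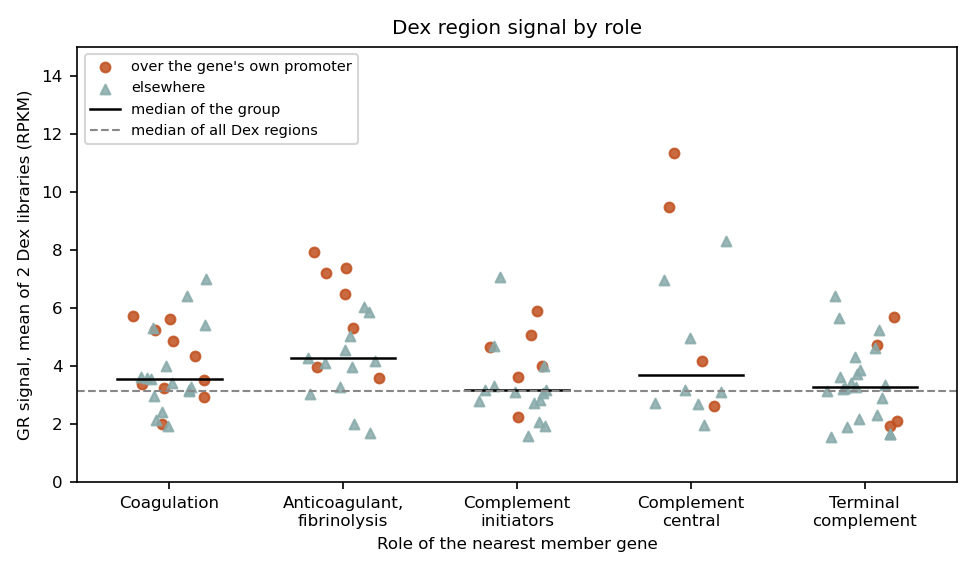
GR signal (mean RPKM of the 2 Dex libraries) at the 102 member regions of the Dex set, grouped by the role of the member gene. Circles are regions over the gene's own promoter and triangles all others, black lines are group medians (3.16 to 4.25 RPKM), and the dashed line is the median of all Dex regions (3.14 RPKM); the 2 highest points are the C3 and Cfb promoters.

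The comparison of dexamethasone with vehicle asks how 1 h of agonist changed GR occupancy. Most member regions in the Dex set, 84 of 102, had no Vehicle region over them, so no vehicle value exists there. The share with one was 17.6%, and 18.3% over all Dex regions. All 18 Vehicle regions of the members matched a Dex region one to one and entered the test among 5665 in all. This pairing keeps only places with a region in both sets. At these 18, signal rose with dexamethasone at 2 (11.1%), the Proc promoter and the C8b region inside Dab1, against 11.8% of all tested regions, and fell at 0, as at 0% of all (edgeR quasi-likelihood test, Benjamini-Hochberg adjusted over 5665 regions, threshold 0.05). The members' share called was close to the background share. That background differed by place, with 4.47% of all tested promoter regions and 17.7% of all others called higher. Of the members' 10 promoter regions only that of Proc was called, and of their 8 others only the C8b region.

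The log2 fold change was above 0 at 17 of the 18 regions, with a median of 0.53, against 80.1% of all tested regions and a median of 0.43. At an unadjusted p under 0.05, 7 of the 18 were higher (38.9%, against 29.0% of all) and 0 were lower, with 23 of all 5665 lower. DESeq2 called 0 of the 18 in either direction (4 of them had no adjusted p) and, over all regions, 239 higher and 31 lower. Both Dex libraries were above both Vehicle libraries at 9 of the 18 (50%), against a background of 51.5%, the groups overlapped at the other 9, and at 0 were both Dex libraries below both Vehicle libraries, against 4.78%. The 10 promoter regions had a median log2 fold change of 0.55, where all 2549 promoter regions tested had 0.18, and the 8 other regions had 0.53, where all 3116 others had 0.65.

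These values scale each library by its total reads and each region by its width. Vehicle values were counted over the Vehicle region and Dex values over the overlapping Dex region, whose coordinates are the ones printed. The Dex region was wider at a median ratio of 1.45, so the 2 values of a pair do not cover the same stretch. More of the 18 were called with no width correction (16) or with a block on replicate number (8), though it is not settled whether those numbers pair the libraries. Scaling that centres the fold changes (TMM) moved the median of all regions from 0.43 to -0.04 and the members' median to 0.02. It moved the number of members above 0 from 17 to 9, and neither the Proc nor the C8b call held. Both calls were also lost without Vehicle 1, without Vehicle 2 or without Dex 2, and held without Dex 1.

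**Figure D4:**
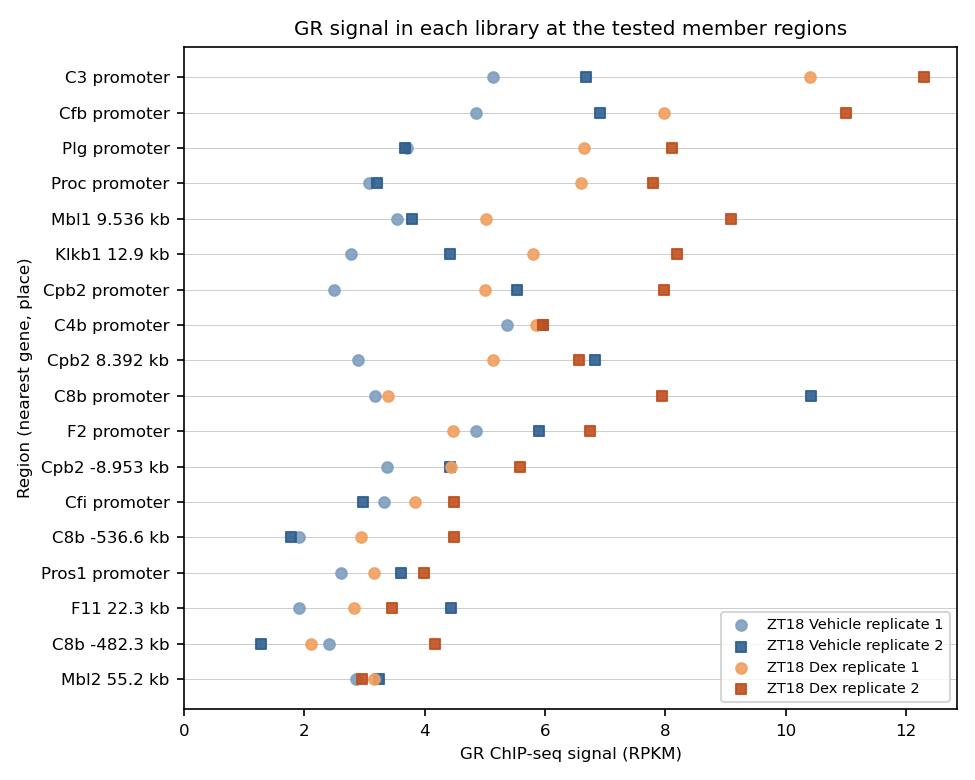
GR signal (RPKM) in each of the 4 libraries at the 18 tested member regions, named by the nearest gene and the place or distance from its TSS and ordered by mean Dex signal. Blue marks are Vehicle and orange marks Dex, circles replicate 1 and squares replicate 2; the Vehicle marks lie wholly to the left of the Dex marks at 9 of 18 regions.

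**Figure D5:**
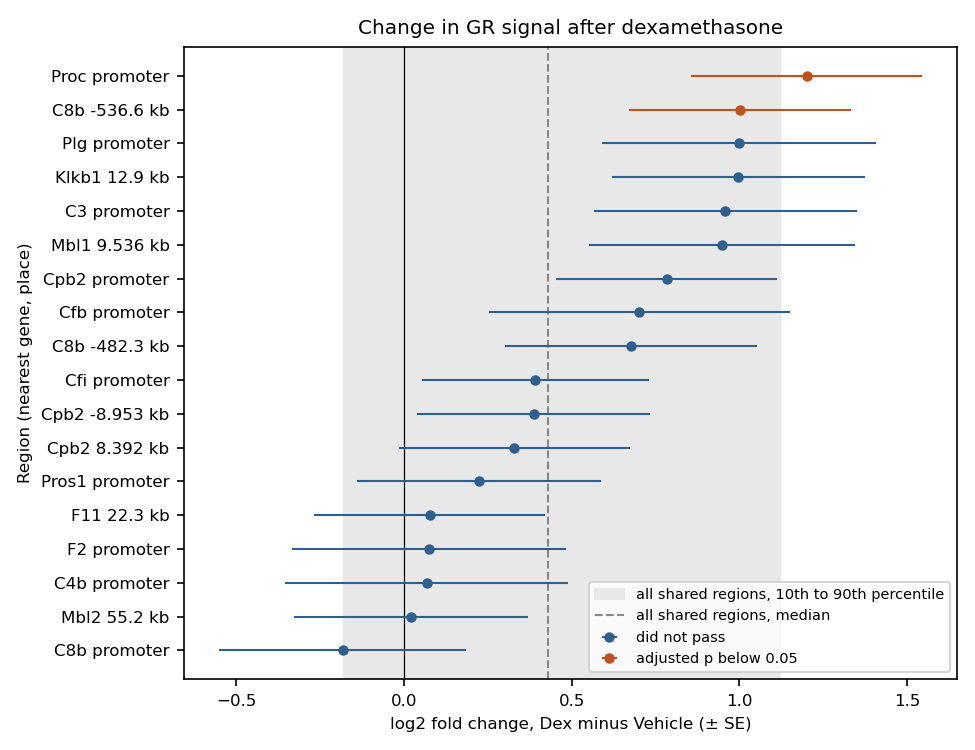
Log2 fold change of GR signal, Dex minus Vehicle, with its SE, at the 18 tested member regions. The SE is from the edgeR fit and rests on spread pooled over regions. The grey band spans the 10th to 90th percentile of all 5665 tested regions (-0.18 to 1.12) and the dashed line is their median (0.43); orange marks the 2 regions that passed the threshold.

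Coagulation proteases and cofactors (11 genes) had 26 Dex regions and 3 tested regions, with 0 called by edgeR. The strongest of these lay in an intron of Klkb1, the gene for plasma prekallikrein, at 12.9 kb (chr8:45281646-45282286). It measured 2.77 and 4.42 RPKM in Vehicle 1 and 2 and 5.80 and 8.19 RPKM in Dex 1 and 2. The groups did not overlap and the log2 fold change was 1.00 ± 0.38 (SE), but the edgeR adjusted p was 0.061. The adjusted p was 0.047 when only regions with Dex signal above the median of the tested regions were kept. The promoter of F2, which encodes prothrombin, measured 4.85 and 5.90 RPKM in Vehicle and 4.48 and 6.74 in Dex (chr2:91636226-91637347). The groups overlapped, with a log2 fold change of 0.07 ± 0.41 and an edgeR adjusted p of 0.93. Here the Dex region was 3.39 times as wide as the Vehicle region. With no width correction, which counts all reads of the wider region, the log2 fold change was 1.83 (edgeR adjusted p = 6.70e-05). A region at 22.3 kb from F11, the gene for factor XI, measured 1.91 and 4.44 RPKM in Vehicle and 2.82 and 3.46 in Dex, and the 2 Vehicle values enclosed the Dex values.

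Apart from F13b, which was the nearest gene of no region in either set, the other coagulation genes had regions in the Dex set only. The strongest was in an intron of Rgs12 at -30.7 kb from Hgfac, which encodes the protease that activates hepatocyte growth factor, with 4.97 and 7.88 RPKM in Dex 1 and Dex 2. F12, the gene for the contact factor XII, had 3.73 and 6.87 RPKM at -2.611 kb. F10, whose product turns prothrombin into thrombin, had 5.19 and 5.31 RPKM at its promoter. Kng1, the gene for the kininogen that carries prekallikrein, had 4.51 and 5.19 RPKM at its promoter. These 4, and the F7 and F5 regions given below, exceeded the median of all Dex regions in both libraries. The medians were 2.91 RPKM in Dex 1 and 3.44 RPKM in Dex 2. F9, encoding the factor IX zymogen, had 2.68 and 4.34 RPKM at its promoter. F7, whose product starts coagulation with tissue factor, had a single region, at its promoter, with 3.10 and 3.61 RPKM. F5, the gene for the cofactor of factor Xa, had 4 regions, of which the strongest, in an intron at 11 kb, had 3.33 and 3.50 RPKM.

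The anticoagulant and fibrinolysis (clot dissolution) group of 5 genes had 19 Dex regions, the highest group median (4.25 RPKM), and 6 tested regions, of which 1 rose. Not all 5 limit or dissolve clots, as the product of Cpb2 protects fibrin. At the promoter of Proc, the gene for protein C, which inactivates factors Va and VIIIa, signal was 3.07 and 3.21 RPKM in Vehicle and 6.60 and 7.79 RPKM in Dex. Both Dex libraries were above both Vehicle libraries, and the log2 fold change was 1.2 ± 0.34, a 2.30-fold rise (edgeR adjusted p = 0.013). The region lay -0.07 kb from the TSS and also over the promoter of AC126686.1. Under TMM scaling its log2 fold change was 0.71 (adjusted p = 0.077), and the adjusted p was 0.16 without Vehicle 1, 0.074 without Vehicle 2 and 0.52 without Dex 2. Over its alternatives the adjusted p ran from 4.76e-05 (no width correction) to 0.52. At the Plg promoter (chr17:12377807-12378693), whose gene encodes the plasmin precursor, signal was 3.71 and 3.67 RPKM in Vehicle and 6.65 and 8.11 in Dex. The groups were apart here too, with a log2 fold change of 1.00 ± 0.41, but the edgeR adjusted p was 0.081.

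Cpb2, encoding the carboxypeptidase that protects fibrin from plasmin, had 3 tested regions. Its promoter region (chr14:75242163-75242575) was the strongest, with 2.49 and 5.53 RPKM in Vehicle and 4.99 and 7.98 in Dex. Vehicle 2 lay above Dex 1, and the log2 fold change was 0.78 ± 0.33 (edgeR adjusted p = 0.089). It was 1.38 (adjusted p = 0.021) without Vehicle 2, 0.23 (adjusted p = 0.81) without Vehicle 1 and 0.40 (adjusted p = 0.89) without Dex 2. The regions of Cpb2 at -8.953 kb and 8.392 kb had log2 fold changes of 0.39 ± 0.35 and 0.33 ± 0.34. At the promoter of Pros1, the gene for protein S, the cofactor of protein C, signal was 2.61 and 3.61 RPKM in Vehicle and 3.15 and 3.99 in Dex. The groups overlapped, and the log2 fold change was 0.22 ± 0.36. Vtn encodes vitronectin, an adhesive plasma protein that binds the plasminogen activator inhibitor PAI-1 and terminal complement. Its promoter, with 7.27 and 8.57 RPKM in Dex 1 and 2 (chr11:78498744-78499346, also over the promoter of Sarm1), was the strongest member region without a Vehicle region, apart from the C3 region at -5.072 kb.

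Complement initiators (8 genes) had 20 Dex regions and 3 tested regions, with 0 called by edgeR. The strongest lay between genes at 9.536 kb from Mbl1, which encodes a mannose-binding lectin (chr14:41160634-41161354). It measured 3.54 and 3.79 RPKM in Vehicle and 5.02 and 9.09 in Dex. The groups were apart, but the Dex libraries differed from each other by more than Dex 1 did from Vehicle, and the log2 fold change of 0.95 ± 0.40 had an edgeR adjusted p of 0.087. The promoter of C4b, the gene for the C4 protein cleaved by C1s and MASP-2, measured 5.36 and 5.97 RPKM in Vehicle and 5.85 and 5.96 in Dex (chr17:34743699-34744921). These values overlapped, with a log2 fold change of 0.07 ± 0.42, over a Dex region 3.94 times as wide as the Vehicle region. With no width correction the log2 fold change was 2.05 (edgeR adjusted p = 1.99e-05). A region at 55.2 kb from Mbl2, the second mannose-binding lectin gene, gave 2.86 and 3.24 RPKM in Vehicle and 3.15 and 2.96 in Dex.

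The remaining initiators had Dex regions only. Masp1 and Masp2, the genes for the lectin pathway proteases, had promoter regions of 4.56 and 4.72 RPKM and of 3.61 and 4.34 RPKM in Dex 1 and 2. The Masp1 promoter region also covered promoters of Rtp4 and Gm45338, and 2 further Masp1 regions, at -85.9 and -89.1 kb, lay over other Rtp4 promoters. C1ra and C1s1, encoding the C1r and C1s proteases of the classical pathway, had promoter regions of 3.01 and 4.24 RPKM and of 2.30 and 2.17 RPKM. C2, the gene for the protease of the classical C3 convertase, had 1 region, at 4.251 kb over the promoter of Zbtb12, with 3.09 and 3.49 RPKM. The Dex region over a promoter annotated for C2 was centred more than 10 kb from the TSS used for distances. It had another nearest gene. C4b, C1ra, C1s1 and C4bp have closely related copies in the mouse genome, and the sources used here do not say how reads matching more than 1 place were counted, so their values are uncertain.

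The central component and alternative pathway genes (4 genes) had 12 Dex regions and 3 tested regions, all promoters, with 0 called by edgeR. The C3 promoter (chr17:57228085-57228506) was the strongest member region. C3 is the protein on which all complement pathways converge. Its signal was 5.13 and 6.69 RPKM in Vehicle and 10.4 and 12.3 in Dex, above 98.5% of Dex regions. The groups did not overlap and the log2 fold change was 0.96 ± 0.39, with an edgeR adjusted p of 0.080. C3 regions at -2.505 kb (6.40 and 7.53 RPKM) and -5.072 kb (7.56 and 9.08 RPKM) had no Vehicle region. The promoter of Cfb, the gene for factor B of the alternative C3 convertase, measured 4.85 and 6.92 RPKM in Vehicle and 7.98 and 11.01 in Dex (chr17:34861970-34862976). These groups were apart too, with a log2 fold change of 0.70 ± 0.45 and an edgeR adjusted p of 0.29. Cfi, encoding the protease that inactivates C3b and C4b, measured 3.33 and 2.97 RPKM in Vehicle and 3.84 and 4.49 in Dex at its promoter. Its log2 fold change was 0.39 ± 0.34 (edgeR adjusted p = 0.46). C4bp, whose product is a cofactor of factor I, had 5 Dex regions, of which the strongest, at -18.4 kb in C4bp-ps1, had 3.32 and 3.02 RPKM.

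Terminal complement genes (6 genes) had 25 Dex regions and 3 tested regions, all given to C8b, which encodes the C8 beta chain, and 1 rose. This was the region at -536.6 kb (chr4:104229274-104230078), with 1.91 and 1.77 RPKM in Vehicle and 2.95 and 4.49 in Dex. Both Dex libraries were above both Vehicle libraries, and the log2 fold change was 1.00 ± 0.33, a 2.00-fold rise (edgeR adjusted p = 0.031). Under TMM scaling it was 0.48 (adjusted p = 0.25), and the adjusted p was 0.16 without Vehicle 1, 0.10 without Vehicle 2 and 0.74 without Dex 2. Over its alternatives the adjusted p ran from 3.25e-05 (no width correction) to 0.74, and DESeq2 gave none. Of the 9 Dex regions of C8b, 5 lay inside Dab1, which encodes an adaptor of reelin signalling, and when only regions within 100 kb of a TSS were kept, an alternative chosen after seeing the data, 1 of 16 member regions was called.

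The promoter of C8b itself (chr4:104765947-104766618) measured 3.17 and 10.4 RPKM in Vehicle and 3.39 and 7.94 in Dex. Replicate 2 was far above replicate 1 in both groups, and the log2 fold change was -0.18 ± 0.37. It was 0.84 without Vehicle 2 and -0.93 without Dex 2, so single libraries set its direction. The tested C8b region at -482.3 kb had 2.41 and 1.27 RPKM in Vehicle and 2.11 and 4.17 in Dex.

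C8g was the nearest gene of no region, though its promoter held a region of each set, and the other terminal genes had Dex regions only. C8a, which encodes the C8 alpha chain, had 5, and the one with the full GRE at -17.3 kb (5.81 and 5.49 RPKM in Dex 1 and 2) was the strongest, well above its promoter region (1.45 and 2.38 RPKM). The other member region with a full GRE, at -34.7 kb from Hgfac, had 3.69 and 7.11 RPKM and was the weakest Hgfac region by mean signal. C9, whose product forms the membrane pore, had 4.72 and 4.71 RPKM at its promoter. Hc, the gene for C5, had no promoter region, and its strongest, at -2.572 kb, had 3.82 and 2.85 RPKM. C6, encoding the component that joins C5b, had the weakest best region of the bound members, its promoter, with 1.25 and 2.97 RPKM.

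Other genes of the complement, coagulation, kinin and fibrinolysis pathways were listed, also with earlier results known. Of the 61 listed, 60 were in the annotation, 38 had a Dex region and 18 a Vehicle region. Of all protein-coding genes, 50.5% were the nearest gene of a Dex region and 18.3% of a Vehicle region. In 17 of the listed genes 22 regions were tested, with a median log2 fold change of 0.69. Of the 22, 3 rose (13.6%, against 11.8% of all) and 0 fell (edgeR). One was the region at -0.809 kb from Fcna, a ficolin of the lectin pathway (4.30 and 3.08 RPKM in Vehicle, 6.67 and 9.15 in Dex, log2 fold change 1.07 ± 0.37, edgeR adjusted p = 0.037). Another lay in an intron at 28.5 kb in Vwf, the gene for von Willebrand factor (4.18 and 3.69, 7.41 and 10.5 RPKM, log2 fold change 1.17 ± 0.42, edgeR adjusted p = 0.045). The third lay 75.1 kb from the TSS of Cd46, a complement regulator, over an annotated promoter (2.63 and 3.19, 4.60 and 7.51 RPKM, log2 fold change 1.07 ± 0.37, edgeR adjusted p = 0.037). The tested region at -0.019 kb from the Cd46 TSS had a log2 fold change of -0.113 ± 0.335 (edgeR adjusted p = 0.86).

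Motifs were searched on both strands without mismatch in the central 200 bp. The full GRE was in 0 of the 18 Vehicle regions of the members, against 4.05% of all Vehicle regions, and in 2 of the 102 Dex regions, against 2.7% of all Dex regions. The GRE half-site (AGAACA) was in 21 of the 102 (20.6%, against 19.2%), and C/EBP (TTGCNNAA) in 14 (13.7%, against 13.1%). STAT was in 6 (5.88%, against 6.68%), the D-box (TTANNTAA) in 4 (3.92%, against 3.65%), FOXA (TGTTTAC) in 3 (2.94%, against 4.32%), the E-box (CACGTG) in 3 (2.94%, against 4.34%) and HNF4A in 1 (0.98%, against 1.40%). HNF1 (GTTAAT, any base, ATTAAC) was in 0. The shares of the members lay near those of the whole set. Each region was counted once per motif, a half-site can lie within a full GRE, and regions on unplaced contigs were not searched.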

How the data were processed

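GR ChIP-seq libraries of mouse liver were grouped by their titles (2 ZT18 Vehicle, 2 ZT18 Dex). Tools named in the submitters' processing notes are Bowtie 1.1.0, SAMtools 1.2 and MACS2 2.1.1, with the build mm10. Per the study's methods, regions were called across ZT6 and ZT18 libraries, separately per treatment, and blacklisted regions removed. The authors deposited whole read counts per region and library, and RPKM. The deposited RPKM is the count per kb of region (end minus start) scaled to the library's reads, and library totals were recovered from both columns. Spike-in chromatin was added, but the sources used here give no factor for it and do not say whether totals include its reads. The ZT6 libraries (4 tables, 20 value columns) were not used here.

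Regions of the 2 sets were paired by an overlap of 1 bp or more (bedtools 2.31.1) and the 5665 one-to-one pairs tested with edgeR 4.0.16 (R 4.3.3, glmQLFTest, offset of library total times region width, at least 10 reads in 2 libraries, which removed 0). SE is the absolute log2 fold change over the square root of F. With infinite prior degrees of freedom, the SE and p of a region come from the spread pooled over regions. An exact permutation test of 2 against 2 cannot go below p = 0.33. Tested on simulated counts for this comparison (5665 regions, 200 changed), the fit recovered 18% of 2-fold and 98% of 4-fold changes. It called 3 of 5465 unchanged regions. The counts were drawn at the fit's own common dispersion (0.0529) and offsets, without the replicate shift or the overall shift of the real libraries. They therefore cannot show how many of the real calls are false. Alternatives were TMM scaling, the shared-region total, DESeq2 1.42.0, other filters, widths and matching, leaving out each library, a replicate block, other gene assignments and motif windows.

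Coordinates are as deposited, and whether starts count from 0 or 1 is not settled. Sequences come from the GRCm38.p6 reference. The rule for regions given with values took those past the threshold, each member's strongest tested region (or strongest Dex region where none was tested) and the 5 strongest Dex regions. Values outside it were added after they were seen: the other tested regions, the closest regions of F13b and C8g, C3 at -2.505 kb, Hgfac at -34.7 kb and the C8a promoter. The members and lists were chosen with earlier results of these data known.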

Additional observations from a re-analysis of the deposited data

How the results depend on the processing

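Of the 18 member regions, 2 were higher. This count was 0 under TMM scaling, with library size set to the shared-region total and by DESeq2 (which gave no adjusted p for 4 of the 18), 8 with the replicate block, 16 with no width correction, 1 within 100 kb of a TSS, and 0 to 2 leaving out each library. The count over all regions higher, 666, was 338 under TMM, 243 with the shared-region total, 239 by DESeq2, 2122 with the replicate block, 3845 with no width correction and 3 to 323 leaving out each library. The count lower, 0, was 101, 121, 31, 26 and 9 in the same order, 1 in the stronger regions alone, 1 at 50% reciprocal overlap and 0 to 11 leaving out each library. Across regions, the differences between replicates correlated little between the 2 groups (0.08). This measure leaves out a shift common to all regions, and replicate 2 was above replicate 1 in both groups (median log2 ratio 0.36 in Vehicle and 0.30 in Dex). It therefore cannot decide whether replicate numbers pair the libraries. With the replicate block the regions that also passed were Klkb1 12.9 kb (0.98), the Plg (0.97), C3 (0.95), Cfb (0.70) and Cpb2 (0.77) promoters and Mbl1 9.536 kb (0.85), in log2 fold change. The counts of members with a region, in both sets, kept within 1.5 times under the other gene assignments, and the filters on low counts changed no call at a member region.

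Under TMM, the shared-region total and DESeq2 respectively, 8 log2 fold changes fell below 0: F2 promoter (-0.41, -0.49, -0.40), F11 22.3 kb (-0.34, -0.42, -0.36), Pros1 promoter (-0.24, -0.32, -0.23), C4b promoter (-0.40, -0.48, -0.39), Cfi promoter (-0.116, -0.197, -0.089), Mbl2 55.2 kb (-0.46, -0.54, -0.44), Cpb2 -8.953 kb (-0.083, -0.163, -0.070) and Cpb2 8.392 kb (-0.078, -0.154, -0.092). That of the C8b promoter was 1.05 with no width correction. The cause was not tested. Leaving out each library, F2 ran from -0.25 to 0.337, F11 from -0.50 to 0.713, Pros1 from -0.013 to 0.454, C4b from -0.015 to 0.140, Mbl2 from -0.085 to 0.094, Cpb2 8.392 kb from -0.23 to 1.020 and the C8b promoter from -0.93 to 0.84. The GRE half-site was in 8 and 41 Dex regions in windows of 100 and 400 bp, and the full GRE in 1 and 2.

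Vehicle reads per tested member region ran from 13 to 110 in Vehicle 2 and from 69 to 242 in Vehicle 1, so Vehicle 2 carried the most counting error.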
